A study of Mus musculus with 12 samples.

Results

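Vgf, Cartpt and 8 further genes for secreted signals of neurons were followed through the 3 groups of an in vitro trauma experiment on mouse cortical neurons. The 10 genes are Vgf, Cartpt, Bdnf, Scg2, Npy, Sst, Tac1, Penk, Adcyap1 and Nptx2, chosen by name among the 55901 genes of the table as neuropeptide precursors and activity-regulated secreted factors. All 10 were among the 15016 genes with a mean of at least 0.5 FPKM (fragments per kilobase of exon, scaled to library size), which were the genes tested. They were singled out because of their levels in Trauma against Control, so the difference between these 2 groups is given for them as a description without a test. Bdnf, a neurotrophin, and Nptx2, a pentraxin, are secreted factors but not neuropeptides, so "neuropeptide genes" covers the other 8 only.

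The cultures were neurons from the cortex of newborn C57BL/6J mice, and all 3 groups received arabinosylcytosine on day 1 to hold back dividing glia. Control cultures were left uninjured, Trauma cultures were scratched and collected after 24 h, and Trauma+TGF-β1 cultures were scratched and kept with TGF-β1 at 10 ng/mL for 24 h. Each group had 4 poly(A) RNA libraries with 15052486 to 17381671 reads on genes, and nothing in the labels tells separate cultures or litters apart, so p-values measure the spread between libraries, which may be technical. No library analysed here had TGF-β1 without a scratch.

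Neuropeptides are made as long precursors, cut by proteases inside dense-core vesicles, and released when a neuron is strongly active. Granins help to build these vesicles and are themselves cut into peptides. Many of the precursor genes are switched on by calcium and cAMP through CREB, a transcription factor that binds the cAMP response element (CRE), and in cortex several of them mark classes of inhibitory interneurons.

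Library 1 of Control stood apart from the other 3. On the first 2 principal components of the tested genes (14.6% and 13.0% of the variance) it lay at −13.0 and −58.9, where the other Control libraries lay between 25.1 and 30.0 and between −9.02 and −4.21. The differences from Control are therefore also given without it. The cells carried neuronal markers throughout, with 8 pan-neuronal genes summing to 1668 to 1734 FPKM in Control, 1463 to 1576 in Trauma, and with TGF-β1 to 1422 to 1477. The largest part was Tubb3, with means of 960, 842 and 739 FPKM. In limma's moderated test (adjusted p of at most 0.05), 0 of the 8 were higher and 3 lower in Trauma than in Control. Of all tested genes 3.3% were higher and 2.7% lower. With TGF-β1 against Trauma 2 of the 8 were higher and 1 lower, where 4.4% and 7.71% of all tested genes were.

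Of the 10 genes, 7 (Cartpt, Bdnf, Scg2, Npy, Sst, Tac1 and Adcyap1) had a start region in the RefSeq promoter table of GRCm38.p6, which gives 300 bases a window, from 250 before to 50 after a start. The full CRE, TGACGTCA, which reads the same on both strands, lay in the windows of 3 of the 7, Scg2, Sst and Cartpt. It is found in 1.79% of all 32851 windows and in 2.03% of the 27025 genes with a window. These stretches are shown because the 3 genes share this motif although they differed in level and in response. Each is written 5′ to 3′ on the strand of its gene, which is the minus strand for all 3, with the CRE in capitals.
Scg2: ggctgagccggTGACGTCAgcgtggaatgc
Sst: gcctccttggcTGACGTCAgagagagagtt
Cartpt: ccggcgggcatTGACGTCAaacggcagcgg
The CRE began 68 bases before the start in Scg2 (chr1:79440076-79440105), 48 before it in Sst (chr16:23890874-23890903) and 112 before it in Cartpt (chr13:99900777-99900806). All 30 bases of each stretch also lie in an exon of that gene in the GENCODE annotation, which has transcripts that begin further upstream.

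The half-site, TGACG or its reverse complement CGTCA, lies inside each CRE and was found without one in Adcyap1, Bdnf and Tac1, so 6 of the 7 genes held it. It is common, in 20.8% of all windows and 23.1% of genes. The next 3 stretches show it in capitals on the plus strand, to set the single half-sites beside the full elements above.
Adcyap1: ggactaggatgcTGACGtcttttactgata
Bdnf: tatgacagctcaCGTCAaggcagcgtggag
Tac1: gctctacaggctCGTCAcgcctgagataaa
The half-site began 91 bases before the start in Adcyap1 (chr17:93198914-93198943), 35 before the start of the third window of Bdnf (chr2:109692389-109692418) and 43 before the start in Tac1 (chr6:7555006-7555035). All 30 bases of the Tac1 stretch also lie in an exon of that gene in the GENCODE annotation, unlike those of Adcyap1 and Bdnf. Tac1 held another half-site 197 bases before its start. A second window of Adcyap1 overlaps the first and holds the same half-site, 242 bases before its own start. The AP-1 motif, TGANTCA on either strand, is bound by Fos and Jun proteins. It lay in 1 of the 7 genes, 152 bases before the start of the second window of Bdnf, against 8.97% of genes and 7.81% of all windows. Bdnf had 7 of the 14 windows of these genes. The windows of Npy held none of the 3 motifs. A match is a description of letters and not a measured binding site.

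The 10 genes covered the whole range of expression. In Control, Sst, Npy and Scg2 were the highest at 56.8, 32.5 and 18.9 FPKM, in the 94.8th, 89.6th and 81.2nd percentile of the tested genes. Vgf, Nptx2, Penk and Adcyap1 lay between 1.47 and 3.87 FPKM. Bdnf, Cartpt and Tac1 were low, with 0.578, 0.452 and 0.342 FPKM. Cartpt and Tac1 were thus below 0.5 FPKM in Control, and reached the level for testing only through the scratched groups, where they were higher. Because each value is a culture average, fewer cells of a type and less RNA per cell cannot be told apart.

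**Figure D1:**
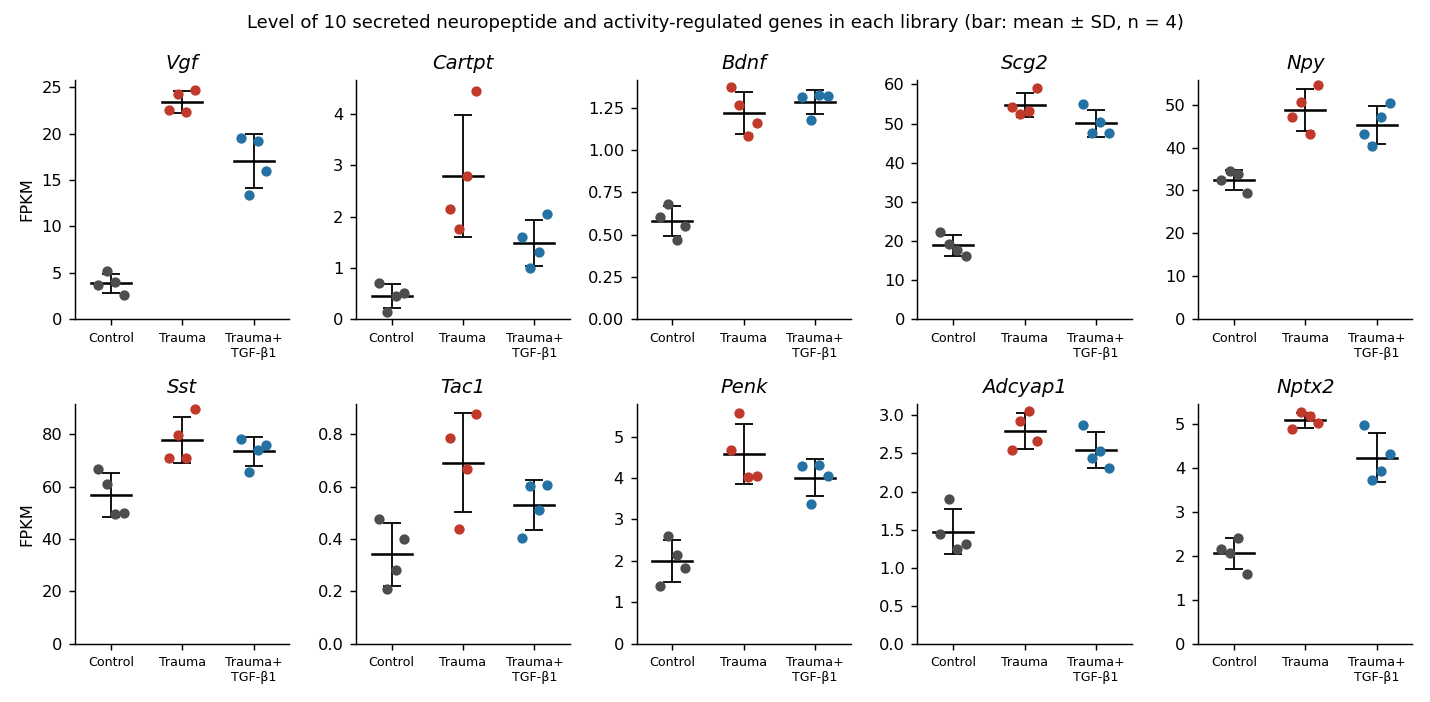
FPKM (vertical axis, from 0) of each of the 10 genes in the 4 libraries of Control, Trauma and Trauma+TGF-β1, 1 point a library, with the mean and SD as bars. For 9 of the 10 genes the Trauma libraries all lie above the Control libraries, Tac1 being the exception, and for Vgf the Trauma+TGF-β1 libraries all lie between the other groups.

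Vgf (ENSMUSG00000037428, chromosome 5 of GRCm38 from 137026392 to 137033351, plus strand) encodes a granin-like precursor of several peptides that neurotrophins and activity induce. Its FPKM in the 4 Control libraries were 3.69, 5.18, 3.98 and 2.64. In Trauma they were 22.5, 24.2, 22.3 and 24.7, and in Trauma+TGF-β1 they were 19.5, 13.4, 19.2 and 16.0. The 3 groups did not overlap, and the mean with TGF-β1 lay nearer to that of Trauma than to that of Control. Group means were 3.87 ± 1.05, 23.4 ± 1.20 and 17.0 ± 2.90 FPKM (SD, n = 4), with 121 to 262 reads behind each Control value and 620 or more behind each value of the scratched cultures. Trauma was higher than Control by 2.60 on the log2 scale (log2 of FPKM plus 0.1), a 6.08-fold difference.

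Cartpt (ENSMUSG00000021647, chromosome 13 from 99898489 to 99901091, minus strand) encodes the precursor of the CART peptides, which act in feeding, reward and stress. In Control it read 0.713, 0.138, 0.448 and 0.508 FPKM, which rest on only 3 to 14 reads a library. In Trauma it read 2.14, 1.75, 2.79 and 4.45 FPKM, and in Trauma+TGF-β1 1.59, 1.00, 1.31 and 2.05 FPKM. Both scratched groups lay wholly above Control and overlapped each other, with the highest Trauma library far above the rest. The means were 0.452 ± 0.238, 2.78 ± 1.19 and 1.49 ± 0.447 FPKM (SD, n = 4). Trauma was higher than Control by 2.43 on the log2 scale, and by 2.66 without library 1 of Control, a value that falls to 1.34 with a pseudocount of 1 in place of 0.1.

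Scg2 (ENSMUSG00000050711, chromosome 1 from 79434669 to 79440120, minus strand) encodes secretogranin II, a granin of dense-core vesicles and the source of secretoneurin. Its FPKM were 22.3, 19.3, 17.6 and 16.3 in Control, 54.2, 52.4, 53.2 and 59.0 in Trauma, and 54.9, 47.7, 50.3 and 47.5 in Trauma+TGF-β1. Every scratched library held more than 2 times the level of every Control library, and the scratched groups overlapped. The means were 18.9 ± 2.61, 54.7 ± 2.97 and 50.1 ± 3.44 FPKM (SD, n = 4), so Scg2 had the largest difference in FPKM of the 10 genes. The log2 difference of Trauma from Control was 1.54, and 1.62 without library 1 of Control, which was the highest of its group.

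Nptx2 (ENSMUSG00000059991, chromosome 5 from 144545902 to 144557478, plus strand) encodes a pentraxin that gathers AMPA receptors at synapses onto interneurons. It read 2.15, 2.06, 2.41 and 1.59 FPKM in Control, 4.89, 5.27, 5.17 and 5.01 in Trauma, and 4.97, 3.71, 3.92 and 4.31 in Trauma+TGF-β1. Trauma was the tightest group, and only library 1 of Trauma+TGF-β1 reached into its range. The means were 2.05 ± 0.343, 5.08 ± 0.168 and 4.23 ± 0.552 FPKM (SD, n = 4), with a log2 difference of 1.28 between Trauma and Control.

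Penk (ENSMUSG00000045573, chromosome 4 from 4133531 to 4138819, minus strand) encodes the enkephalin precursor, and a gene on the other strand that overlaps it, A830012C17Rik, had at most 0.106 FPKM in any library. Penk read 1.39, 2.59, 2.14 and 1.83 FPKM in Control, 4.69, 5.58, 4.02 and 4.06 in Trauma, and 4.30, 3.37, 4.31 and 4.05 in Trauma+TGF-β1. All scratched libraries were above all Control libraries, and library 1 of Control was the lowest. The log2 difference of Trauma from Control was 1.19, or 1.04 without that library.

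Bdnf (ENSMUSG00000048482, chromosome 2 from 109674700 to 109727007, plus strand) encodes the neurotrophin that signals through the receptor encoded by Ntrk2. Its FPKM were 0.606, 0.681, 0.471 and 0.553 in Control, 1.37, 1.26, 1.08 and 1.16 in Trauma, and 1.31, 1.18, 1.32 and 1.32 in Trauma+TGF-β1. The scratched groups covered the same range and both lay above Control. It was the only 1 of the 10 genes whose mean was higher in Trauma+TGF-β1 (1.28 ± 0.0705) than in Trauma (1.22 ± 0.125 FPKM, SD, n = 4). The log2 difference of Trauma from Control was 0.96. A predicted gene on the opposite strand, Gm45346, overlaps Bdnf and had at most 0.135 FPKM.

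Adcyap1 (ENSMUSG00000024256, chromosome 17 from 93199017 to 93206537, plus strand) encodes PACAP, a peptide that raises cAMP in its target cells. It read 1.45, 1.90, 1.25 and 1.31 FPKM in Control, 2.54, 2.93, 3.05 and 2.66 in Trauma, and 2.87, 2.44, 2.54 and 2.32 in Trauma+TGF-β1. Control was again lower than both scratched groups, which overlapped. Its log2 difference between Trauma and Control was 0.89.

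Npy and Sst, precursors of neuropeptide Y and somatostatin and markers of cortical interneurons, were the 2 with the smallest relative differences. Npy (ENSMUSG00000029819, chromosome 6 from 49822710 to 49829507, plus strand) read 32.4, 34.6, 33.8 and 29.3 FPKM in Control, 47.1, 50.6, 43.1 and 54.5 in Trauma, and 43.1, 40.4, 47.2 and 50.4 in Trauma+TGF-β1. Sst (ENSMUSG00000004366, chromosome 16 from 23889573 to 23890958, minus strand) read 66.8, 61.0, 49.8 and 49.8 FPKM in Control, 70.9, 79.9, 71.0 and 89.5 in Trauma, and 78.2, 65.8, 74.0 and 76.1 in Trauma+TGF-β1. Npy separated both scratched groups from Control, while for Sst library 1 of Control, at 66.8 FPKM, was above library 2 of Trauma+TGF-β1. The log2 differences of Trauma from Control were 0.58 for Npy and 0.46 for Sst, the latter 0.54 without library 1 of Control.

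Tac1 (ENSMUSG00000061762, chromosome 6 from 7554879 to 7565834, plus strand) encodes the precursor of substance P and neurokinin A. It read 0.478, 0.208, 0.281 and 0.401 FPKM in Control, on 12 to 25 reads, 0.787, 0.438, 0.666 and 0.876 in Trauma, and 0.406, 0.603, 0.509 and 0.606 in Trauma+TGF-β1. It was the only gene of the 10 with overlap between Trauma and Control, where library 2 of Trauma fell below library 1 of Control. The log2 difference was 0.85, and 0.99 without library 1 of Control.

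Side by side, 10 of the 10 genes had a higher mean in Trauma than in Control, and 9 did so without overlap, where 6.25% of the tested genes did. None was lower without overlap, where 6.69% of the tested genes were. The median log2 difference was 1.07 over the 10 genes and −0.012 over all genes tested. Since these values chose the genes, nothing is read from the count. Per library, the median of the 10 genes' log2 differences from the Control mean was −0.15 to 0.10 in Control, 1.02 to 1.18 in Trauma, and with TGF-β1 0.80 to 1.09.

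Summed glial markers were also higher in the scratched cultures. The 8 astrocyte markers summed to 206 to 236 FPKM in Control, 263 to 324 in Trauma, and with TGF-β1 to 278 to 299. Of the 8, 6 were higher in Trauma than in Control by the limma test, where 3.3% of all tested genes were higher and 2.7% lower. The 9 microglia markers summed to 20.9 to 24.9, 31.4 to 40.1 and 25.4 to 29.4 FPKM, with 2 of the 5 tested higher in Trauma. The 8 oligodendrocyte lineage markers summed to 46.3 to 49.1, 57.5 to 64.7 and 56.9 to 63.4 FPKM, with 2 of the 5 tested higher. The 13 GABAergic interneuron markers summed to 281 to 301 FPKM in Control, 267 to 282 in Trauma, and with TGF-β1 to 257 to 276. Of these 13, 1 was higher and 2 were lower in Trauma than in Control, where 3.3% and 2.7% of all genes were. The interneuron peptide genes Sst and Npy were thus higher in cultures where the summed interneuron markers were not. The 7 glutamatergic markers summed to 248 to 268, 256 to 266 and 254 to 259 FPKM. Endothelial and fibroblast markers summed to 1.46 to 2.23 and 1.26 to 3.12 FPKM over all libraries, and no marker of any list was at 0 throughout, though Cldn5 of endothelium had at most 3 reads in any library. The part of cell composition in the levels of the 10 genes was not tested.

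The next comparison asked whether the 10 genes still differed from uninjured cultures when TGF-β1 was present after the scratch. Vgf, Cartpt, Scg2, Bdnf, Nptx2, Penk, Adcyap1, Npy and Sst, 9 of the 10, were higher in Trauma+TGF-β1 than in Control with an adjusted p of at most 0.05 in limma's moderated test. That direction was called for 6.14% of all genes tested and the lower one for 10.4%. The comparison shares the Control libraries with the one that chose the genes, so it is not independent of that choice. The median log2 difference was 1.01 over the 10 genes and −0.009 over all genes tested, and 8 of the 10 showed no overlap, against 7.94% of all genes.

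Vgf again led, higher by 2.13 on the log2 scale (standard error 0.17, limma adjusted p = 1.78e-05), and Scg2, with the smallest adjusted p of the 10, was higher by 1.41 (standard error 0.085, limma adjusted p = 2.71e-06). Cartpt was higher by 1.61 with the widest error (standard error 0.38, limma adjusted p = 0.0137), by 1.84 without library 1 of Control and by 0.77 with a pseudocount of 1. It passed the filter only through the scratched groups, and without a filter on low values its limma adjusted p was 0.0322. Bdnf, Nptx2 and Penk were each about doubled, with log2 differences of 1.03, 1.01 and 1.00 and limma adjusted p-values of 0.000855, 0.000285 and 0.00262. Without library 1 of Control the value of Penk was 0.85. Adcyap1 was higher by 0.76 (limma adjusted p = 0.00256) and Npy by 0.47 (limma adjusted p = 0.00369).

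Sst was the weakest of the 9, higher by 0.38 (standard error 0.10, limma adjusted p = 0.0291), and by 0.46 without library 1 of Control. Its adjusted p ran from 0.00694 to 0.0861 over the alternatives and was above 0.05 without a filter on low values (0.0647) and when library 3 or 4 of Control or library 1, 3 or 4 of Trauma+TGF-β1 was left out. Tac1 was not called, with a log2 difference of 0.54 (95% interval −0.09 to 1.18, limma adjusted p = 0.229), which includes both no difference and a doubling.

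**Figure D2:**
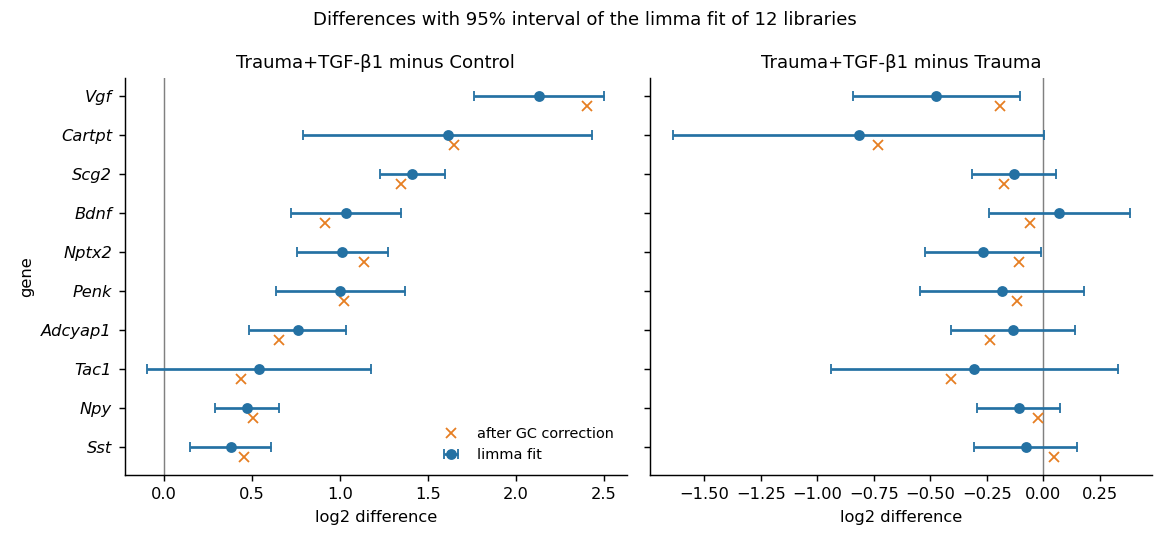
Log2 difference (horizontal axis) of each of the 10 genes between Trauma+TGF-β1 and Control (left) and between Trauma+TGF-β1 and Trauma (right), as points with the 95% interval of the limma fit, not adjusted for the number of genes, and as crosses after correction of each library for GC content. On the left 9 intervals lie above 0, all but that of Tac1. On the right 9 points lie below 0, and that of Vgf moves from −0.47 to −0.19 with the correction.

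The last comparison asked what TGF-β1 changed among scratched cultures. Of the 10 genes, 9 had a lower mean with TGF-β1, all but Bdnf, and none passed the adjusted threshold in limma, where 7.71% of all tested genes were lower and 4.4% higher. At an unadjusted p of 0.05 or less the count was 2, and it was 1 after adjustment both with voom on the recovered reads and in a fit of only the 2 scratched groups, the gene being Vgf in each. The comparison shares the Trauma libraries with the one that chose the genes, whose Trauma values were high by that choice. The median log2 difference was −0.16 over the 10 genes and 0.0025 over all genes tested. For 9 of the 10 genes the order of group means was Control, Trauma+TGF-β1, Trauma, but the upper 2 neighbours of that order were not told apart at the adjusted threshold for any of them.

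Vgf was the only 1 of the 10 without overlap between the scratched groups, with 13.4 to 19.5 FPKM with TGF-β1 and 22.3 to 24.7 without, where 12% of all genes were lower without overlap and 10.2% higher. The log2 difference was −0.47 (standard error 0.17, 95% interval −0.84 to −0.10, limma adjusted p = 0.0864). The adjusted p was 0.0248 in the fit of 2 groups and 0.00281 with voom. It was 0.0488 and 0.039 when library 2 or library 4 of Control was left out. In all other alternatives it was above 0.05, up to 0.481. These included every fit without a library of either scratched group, with 0.0816 to 0.223.

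The transcript of Vgf is rich in G and C, at 64.1% above 99.0% of the tested genes, and the difference between the scratched groups fell with this property across genes. Over 14699 genes with a known transcript, Spearman's rho between GC content and the log2 difference was −0.47 for Trauma+TGF-β1 against Trauma, −0.36 for Trauma+TGF-β1 against Control and 0.088 for Trauma against Control. These are descriptions across genes, which share libraries and are not independent. The 101 genes within 1 point of Vgf in GC content had a median log2 difference of −0.25. After a correction of each library for GC content the log2 difference of Vgf between the scratched groups was −0.19 (limma adjusted p = 0.476), while its difference from Control was 2.40 (limma adjusted p = 1.74e-06).

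**Figure D3:**
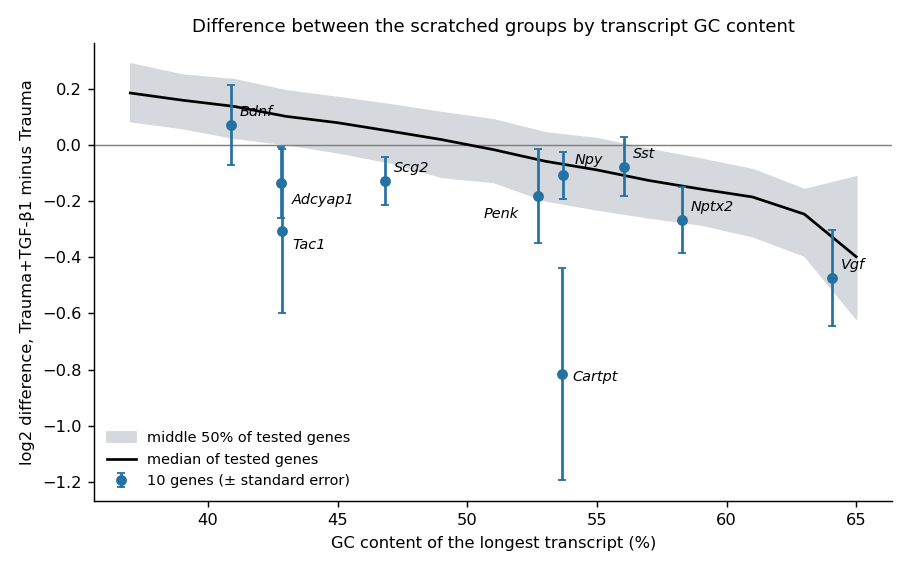
Log2 difference of Trauma+TGF-β1 from Trauma (vertical axis) against transcript GC content in percent (horizontal axis). The line is the median and the band the middle 50% of the tested genes in bins 2 points wide, and points with standard errors are the 10 genes. The median falls with GC content, Vgf lies at its right end at 64.1%, and Cartpt lies far below the line at 53.6%.

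Cartpt had the largest estimate of the 10 in this comparison, a log2 difference of −0.82, with a standard error of 0.38 and a limma adjusted p of 0.173. The 95% interval ran from −1.64 to 0.005, so that neither a halving nor no change lies outside it, and library 4 of Trauma, at 4.45 FPKM, moved the estimate to −0.57 when left out. Unlike Vgf, its value hardly moved with the GC correction (−0.73), and the 1494 genes of like GC content had a median of −0.070.

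Nptx2 had a log2 difference of −0.27 (95% interval −0.53 to −0.01, limma adjusted p = 0.155), and −0.11 after the GC correction. The 95% intervals of Scg2 (−0.31 to 0.06), Npy (−0.29 to 0.07) and Sst (−0.31 to 0.15) were the narrowest and reached no further than −0.31. Penk, Adcyap1 and Tac1 had estimates of −0.18, −0.13 and −0.31 with limma adjusted p-values of 0.515, 0.528 and 0.538. Bdnf stood at 0.070 (95% interval −0.24 to 0.38, limma adjusted p = 0.792) and turned to −0.057 with the GC correction, while Sst turned from −0.079 to 0.046. For those 2 genes the data give no direction between the scratched groups.

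Within groups the 10 genes moved together only loosely. Of the 45 pairs, the correlation of their deviations from the group means over 12 libraries was above 0 for 31, with a median of 0.27 and a range from −0.86 (Tac1 with Penk) to 0.82 (Scg2 with Sst). Cartpt with Tac1, both on few reads, stood at 0.71. These values describe 12 libraries with 4 a group, and all genes of a library share its depth and culture. The same share was not computed for pairs of other genes, so nothing particular to the 10 genes is read from it.

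Among the 12789 other genes with a mean of at least 1 FPKM, the 5 whose log2 values followed Vgf most closely over the 12 libraries were Dhrs1, Jun, Fgfr1, Igfbp2 and Nr4a3, with Pearson correlations of 0.98, 0.98, 0.98, 0.97 and 0.97. Jun, a subunit of AP-1, went from 9.01 FPKM in Control to 18.0 in Trauma and 15.4 in Trauma+TGF-β1, and Nr4a3, an orphan nuclear receptor of the early response, from 2.95 to 8.23 and 7.47. The 5 nearest to Cartpt were Tmem255a, Myl9, Plagl1, Plxnb2 and Ehd2, at 0.93, 0.92, 0.91, 0.90 and 0.90. Myl9, a myosin light chain of contractile cells, had means of 1.14, 3.78 and 3.57 FPKM. These likenesses are measured over libraries in which the groups differ, and they carry no p.

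Most neuropeptide precursors outside the 10 were silent or low in these cultures. Of 55 others, 13 reached the level for testing, and 3 of the 13 were higher in Trauma than in Control, against 3.3% of all genes, with none lower, against 2.7%. Pnoc encodes the nociceptin precursor and rose by 0.44 on the log2 scale (limma adjusted p = 0.00414), with 11.1 ± 1.03 FPKM in Control and 15.1 ± 0.634 in Trauma (SD, n = 4). It was called in all of the 27 alternatives. Cck, the cholecystokinin precursor, rose from 40.9 to 53.6 FPKM (log2 difference 0.39, limma adjusted p = 0.0439), a call lost in 16 of the 27. Apln, which encodes apelin, rose from 0.794 to 1.45 FPKM in Trauma (log2 difference 0.82, limma adjusted p = 0.0193) and fell to 0.840 with TGF-β1 (log2 difference −0.72, limma adjusted p = 0.0246), and these calls were lost in 4 and 8 of the alternatives. Apln was the only 1 of the 13 called between the scratched groups. The list medians were 0.30 for Trauma against Control, −0.23 for Trauma+TGF-β1 against Trauma and 0.06 for Trauma+TGF-β1 against Control, where only Pnoc was called (log2 difference 0.28, limma adjusted p = 0.0203), a call lost in 2 alternatives.

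Granins other than Scg2 are proteins of the same vesicles. Of 5 (Chga, Chgb, Scg3, Scg5 and Pcsk1n), none was called between Trauma and Control, with a median log2 difference of 0.12, but 3 were lower with TGF-β1 than without, where 7.71% of all genes were. Chga, chromogranin A, had a log2 difference of −0.43 (limma adjusted p = 0.00958), with 44.9 ± 1.64 FPKM in Trauma against 33.2 ± 1.58 with TGF-β1 (SD, n = 4), and was called in all 27 alternatives, with −0.27 after the GC correction. Pcsk1n, which encodes the proSAAS inhibitor of a prohormone convertase, fell from 179 to 130 FPKM (log2 difference −0.47, limma adjusted p = 0.0176), and Chgb, chromogranin B, from 44.6 to 34.0 FPKM (log2 difference −0.39, limma adjusted p = 0.0237). The call of Pcsk1n was lost in 5 alternatives and that of Chgb in 8, among them the GC correction with an adjusted p of 0.0557. Against Control, Pcsk1n was lower with TGF-β1 by a log2 value of −0.55 (limma adjusted p = 0.00522). Scg3 was higher by 0.23 (limma adjusted p = 0.012), a call lost with the GC correction alone, and Chga was lower by −0.26 (limma adjusted p = 0.0443), a call lost in 20 of the 27.

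**Figure D4:**
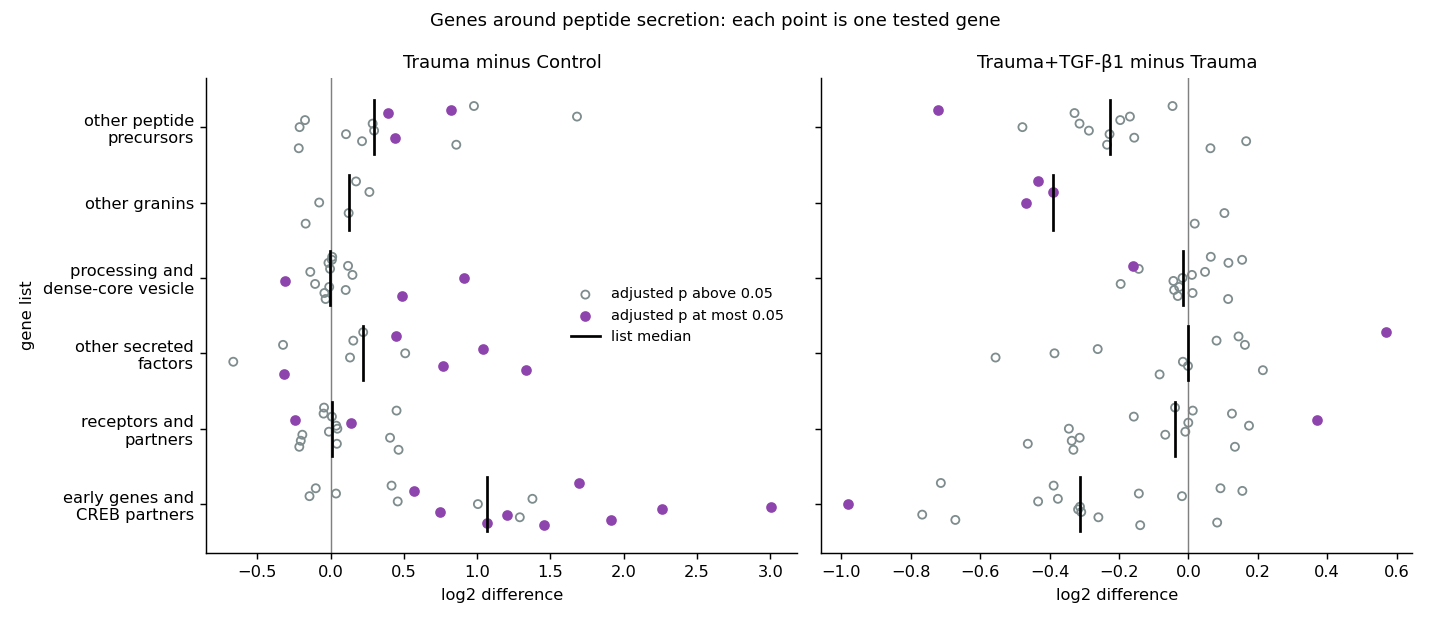
Log2 difference (horizontal axis) of each tested gene of 6 lists around peptide secretion, for Trauma against Control (left) and Trauma+TGF-β1 against Trauma (right), filled where the limma adjusted p is at most 0.05, with the list median as a bar. The early genes have the highest median on the left (1.07), and the other granins have the lowest on the right (−0.39).

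Of 16 genes that process peptides or build dense-core vesicles, 15 were tested, 2 were higher and 1 lower in Trauma than in Control, where 3.3% and 2.7% of all genes were, and the list median was −0.003. The 2 main prohormone convertases went opposite ways. Pcsk1 rose from 1.42 ± 0.116 to 2.78 ± 0.394 FPKM (SD, n = 4; log2 difference 0.91, limma adjusted p = 0.000358), and Pcsk2 fell from 15.5 ± 0.740 to 12.5 ± 0.756 FPKM (log2 difference −0.31, limma adjusted p = 0.0133). Both differences stood with TGF-β1 present, at 0.89 (limma adjusted p = 0.00026) and −0.35 (limma adjusted p = 0.00365) against Control, and in all 27 alternatives, although library 1 of Trauma+TGF-β1 lay apart for Pcsk2 at 10.8 FPKM. Qpct, the enzyme that forms the pyroglutamate end of some peptides, rose from 2.19 to 3.10 FPKM (log2 difference 0.49, limma adjusted p = 0.0196, a call lost in 7 alternatives) and was at 3.02 with TGF-β1 (0.46 against Control, limma adjusted p = 0.0137). Cpe, the carboxypeptidase that trims the cut ends, was lower with TGF-β1 than without by −0.16 (limma adjusted p = 0.0435), and Pam, the amidating enzyme, was higher than Control by 0.16 with TGF-β1 (limma adjusted p = 0.0276). The calls of Cpe and Pam were lost in 16 and 10 of the alternatives.

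Among 15 other activity-regulated or trophic secreted factors, 11 were tested, of which 4 were higher and 1 lower in Trauma than in Control, where 3.3% and 2.7% of all genes were. Nptx1, the closest relative of Nptx2, rose from 1.96 ± 0.228 to 4.11 ± 0.228 FPKM (SD, n = 4; log2 difference 1.04, limma adjusted p = 0.000124), and Plat, the tissue plasminogen activator, whose product plasmin cuts proBDNF, from 2.76 to 4.76 FPKM (log2 difference 0.76, limma adjusted p = 0.000687), with library 3 of Control below the rest at 2.42. Both stayed higher than Control with TGF-β1, by 0.78 (limma adjusted p = 0.000596) and 0.76 (limma adjusted p = 0.000436). Timp1, a metalloproteinase inhibitor, went from 0.570 to 1.58 FPKM on 4 to 13 reads in Control, and Igf1, a growth factor, from 1.82 to 2.52 FPKM. Their calls (limma adjusted p = 0.0468 and 0.0393) were lost in 20 and 14 of the alternatives, while Timp1 with TGF-β1 against Control was called in all 27 (log2 difference 1.55, or 0.83 with a pseudocount of 1, limma adjusted p = 0.0123). Hbegf, a ligand of the EGF receptor, was the only factor of this list called between the scratched groups. It rose from 3.31 ± 0.121 to 4.98 ± 0.554 FPKM (SD, n = 4; log2 difference 0.57, limma adjusted p = 0.00549) and stood 0.79 above Control (limma adjusted p = 0.000225).

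Of 25 receptors and binding partners of the 10 products, 15 were tested. In Trauma against Control 1 was higher and 1 lower, where 3.3% and 2.7% of all genes were, with a list median of 0.009. Ntrk2, the receptor of BDNF, went from 38.6 ± 1.39 to 42.5 ± 0.429 FPKM (SD, n = 4; log2 difference 0.14, limma adjusted p = 0.0453), a call lost in 15 alternatives. Npy1r, a receptor of neuropeptide Y, fell from 8.60 ± 0.545 to 7.23 ± 0.221 FPKM in Trauma (log2 difference −0.25, limma adjusted p = 0.0216), a call lost in 6, and was at 9.38 ± 0.474 FPKM with TGF-β1, 0.37 above Trauma (limma adjusted p = 0.0044), a call made in all 27. It was the only one of the 15 called between the scratched groups. Trauma+TGF-β1 against Control called 3 higher and 2 lower, where 6.14% and 10.4% of all genes were. The somatostatin receptor genes Sstr3 and Sstr1 were lower by −0.54 (limma adjusted p = 0.019) and −0.26 (limma adjusted p = 0.0349), while C3ar1, the receptor of a VGF peptide and of complement C3a, was higher by 0.46 (limma adjusted p = 0.0379), and Ntrk3, the receptor of neurotrophin-3, by 0.21 (limma adjusted p = 0.0273), with library 2 of Trauma+TGF-β1 above the rest at 8.81 FPKM. The calls of Sstr1, C3ar1, Ntrk3 and Sstr3 were lost in 16, 12, 9 and 5 of the 27 alternatives, the first 3 also with the GC correction (limma adjusted p = 0.22, 0.0782 and 0.128), where Sstr3 was still called (limma adjusted p = 0.0455).

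Activity-regulated transcription factors and partners of CREB are known as regulators of many secreted neuronal genes. Of 18, 17 were tested, and 9 were higher and none lower in Trauma than in Control, where 3.3% and 2.7% of all genes were, with a list median of 1.07. Like the other lists, this list was chosen with earlier results of these data known, so nothing is read from its count. The p-values of its genes are not independent of that choice. Fos had the largest log2 difference of the list (limma adjusted p = 0.00569), from 1.38 ± 0.261 to 14.4 ± 9.89 FPKM (SD, n = 4), followed by Fosb, and Nr4a1 rose from 2.77 ± 0.172 to 12.2 ± 6.77 FPKM (log2 difference 1.91, limma adjusted p = 0.0171). These genes scattered widely among scratched libraries, Fos from 5.71 to 23.4 FPKM without TGF-β1 and from 5.25 to 18.1 with it. Fosb and Arc were higher by 2.26 and 1.70 (limma adjusted p = 0.0334 and 0.0466), calls lost in 8 and 15 alternatives, and that of Nr4a1 was lost without library 4 of Trauma. Arc is counted in this list as an activity-regulated gene, but its product is a synaptic protein and not a transcription factor. The constitutive factor Creb1 had 4.44 ± 0.144 FPKM in Control and 4.14 ± 0.358 in Trauma (SD, n = 4; limma adjusted p = 0.539).

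With TGF-β1, 5 of the 17 were higher than in Control and none was lower, where 6.14% and 10.4% of all genes were. Fos, Fosb, Nr4a3 and Nr4a2 stood 2.69, 1.94, 1.32 and 1.15 above Control (limma adjusted p = 0.00548, 0.0326, 5.17e-06 and 0.00361), and that of Fosb was lost in 7 of the 27 alternatives. Between the scratched groups the list median was −0.31, and only Egr4 was called, falling from 8.69 ± 3.39 to 4.29 ± 1.41 FPKM (SD, n = 4; log2 difference −0.98, limma adjusted p = 0.0448). That call was lost in 17 of the 27 alternatives, and the log2 difference was −0.57 after the GC correction.

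The motifs printed above were also counted in the other tested genes. Apart from the 10 genes, 365 tested genes had a full CRE in a window, and 12 of them (3.29%) were higher in Trauma than in Control, against 383 of 9988 (3.83%) of all tested genes with a window. For AP-1 it was 35 of 562 genes (6.23%), and for the half-site 109 of 3590 (3.04%). These shares are given without a test. Among the 7 genes with a window, the 3 with a full CRE had both the largest difference of Trauma from Control and the smallest, Cartpt with 2.43 and Sst with 0.46. Vgf, Penk and Nptx2 had no window, so they were not searched for the motifs.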

How the data were processed

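Poly(A) RNA of 12 libraries (Control, Trauma and Trauma+TGF-β1, 4 each) was analysed. The authors aligned reads with Hisat2 v2.0.5 (mm10 per the labels), counted them on genes with featureCounts v1.5.0-p3 and used DESeq2 for their own calls. The deposited table holds FPKM and the gene length in bases (other). FPKM times length gave whole reads for 100% of genes (tolerance 0.01 reads). The deposited FPKM already carried median-of-ratios scaling, since the factor computed here was 1.0062 in each library. The methods speak of 6 samples, the table holds 12 libraries.

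Log2 of FPKM plus 0.1 was fitted with limma 3.58.1 in R 4.3.3 (all libraries, eBayes with a trend, Benjamini-Hochberg over 15016 genes with a mean of at least 0.5 FPKM, threshold 0.05). Their test on counts was not repeated, while reads recovered from FPKM were fitted with voom as an alternative. The procedure was run on simulated reads with the same setting of the spread for every gene and no relation to GC content. These data differ in both, so that run does not vouch for genes that scatter widely or follow GC content. The 10 genes, gene lists and tests were chosen with earlier results of these data known. Of each list, up to 4 genes a comparison were named, those with the largest absolute log2 difference at an adjusted p of at most 0.05 and at least 1 FPKM in the higher group, plus the 5 genes nearest to Vgf and to Cartpt. Creb1, and members of lists given only by name, were named outside that rule after values were seen. GC content came from the longest transcript, with a loess correction (span 0.3). The 27 alternatives were 15 settings and 12 fits without 1 library. Figures were drawn with matplotlib 3.10.9.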

Additional observations from a re-analysis of the deposited data

Results flagged for a closer look

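In 4 of 120 groups of 4 libraries, over 40 named genes, 1 library lay far from the other 3 by Dixon's criterion, which chance alone meets in about 1 of 20 groups. Bdnf was at 1.18 FPKM in library 2 of Trauma+TGF-β1, where the others were at 1.31 to 1.32. Ntrk3 was at 8.81 FPKM in the same library, the others at 8.02 to 8.09. Pcsk2 was at 10.8 FPKM in library 1 of Trauma+TGF-β1, the others at 12.4 to 12.7. Plat was at 2.42 FPKM in library 3 of Control, the others at 2.84 to 2.91.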

How the results depend on the processing

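Depth limits Cartpt and Tac1, whose Control values rest on 3 to 14 and 12 to 25 reads. The median of the 10 genes in Trauma against Control was 0.77 with a pseudocount of 1, 1.19 with a filter at 1 FPKM, which drops Tac1, and 1.01 to 1.24 with 1 library left out. In Trauma+TGF-β1 against Control 8 to 9 of the 10 were called with 1 library left out. Against Trauma 0 to 1 were called, and 1 with voom and with a fit of the 2 groups. Between the scratched groups Bdnf turned to −0.057 with the GC correction, with or without the replicate block, and Sst to 0.046 with these and to 0.021 with quantile normalization. The causes were not tested.

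Over all genes, Trauma against Control gave 901 calls, 575 without a filter on low values, 518 in the fit of 2 groups, 1366 with the GC correction and block, and 486 to 875 with 1 library left out, where leaving out library 2, 3 or 4 of Trauma moved it most (559, 582 and 486). Trauma+TGF-β1 against Trauma gave 1819, 987 without a filter, 876 with the length correction and block, 818 and 740 with the GC correction without and with the block, and 651 to 2541 with 1 library left out, with 1021, 794 and 863 without library 1, 2 or 4 of Trauma and 651 and 801 without library 2 or 4 of Trauma+TGF-β1. Trauma+TGF-β1 against Control gave 2487, 1601 in the fit of 2 groups, and 1490 to 3397, with 1533 and 1490 without library 2 or 3 of Control, 1505 without library 2 of Trauma+TGF-β1 and the highest without library 1 of Control. The 6 lists around peptide secretion together had 22, 8 and 24 calls in the 3 comparisons. Trauma against Control had 11 in the fit of 2 groups and 9 to 25 with 1 library left out, with 13, 13, 14 and 9 without library 3 or 4 of Control and 3 or 4 of Trauma. Trauma+TGF-β1 against Trauma had 4 without a filter, 5 with the length correction and block, 4 with the GC correction and block, 14 with voom and 3 to 13 with 1 library left out, the lowest without library 2 or 4 of Trauma+TGF-β1 and the highest without library 1 of Control, and Trauma+TGF-β1 against Control had 16 to 28. The split of higher and lower calls in Trauma against Control was 496 and 405, 655 and 223 when FPKM were rescaled to reads on genes (added after seeing the data), 474 and 523 with the length correction and 487 and 761 with the GC correction. In Trauma+TGF-β1 against Trauma it was 661 and 1158, and 1125 and 927 with quantile normalization. In Trauma+TGF-β1 against Control it was 922 and 1565, 1134 and 918 with quantile normalization, and 1340 and 1095 when rescaled.

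Same-numbered libraries did not deviate together (correlations −0.0088 to 0.076), so the numbers were not taken to pair them. With the replicate number as a block the 3 comparisons gave 786, 1517 and 2267 calls, and Sst against Control passed to an adjusted p of 0.0508. Of the 44 calls named from the lists, 20 were made under all 27 alternatives.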
